A study of Mus musculus with 24 samples.

Results

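The genes described here are 56 genes of the interferon response and of antigen presentation by the major histocompatibility complex (MHC), listed by name, in mouse melanoma and leukemia lines in and out of tumour dormancy. Their probes were found through the RefSeq accession that the array design gives each probe, which matched 53 of the 56 among 22911 genes named in this way. Mx1, Mx2 and Psme2 were not matched, and no value is given for them. By role the list holds 14 genes of class I presentation, 5 of class II presentation, 6 interferon transcription factors and 31 interferon-induced effectors. The first 2 roles together are called the MHC genes (19, of which 18 matched) and the others the interferon-stimulated genes (37, of which 35 matched).

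Interferons are secreted when a cell senses viral or displaced nucleic acid, and they act through receptors on the cell itself and its neighbours to switch on a shared set of genes by way of STAT proteins and interferon regulatory factors. The products of that set degrade foreign RNA, block virus release and tune the response, and many of them also equip the cell to cut its own proteins into peptides and show them on MHC molecules.

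The series compared parental tumour lines with lines recovered from immunised mice in which the tumour had persisted without growing out. The melanoma lines were B16-M (the parental B16F1 line carrying GFP, 3 arrays), B16-D (its dormant derivative, 4 arrays of which 3 were used) and 3 second-generation dormant lines taken from the brain, B16-D-733 (4 arrays), B16-D-735 (3) and B16-D-739 (3). The leukemia lines were M0-p20 (the parental line, 4 arrays) and J365-p20 (a dormant derivative, 3 arrays). That M0-p20 is the DA1-3b leukemia, and that the 3 numbers stand for the brain-derived lines, was inferred from the names. Each condition is 1 line, so the state of dormancy and the history of a line cannot be told apart, and all were cultured cells with no other condition applied. The labels do not say that replicates came from separate cultures, so the p-values measure only the spread between these samples, which may be technical.

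Each array measured total RNA in 1 colour, and levels are given as log2 signal relative to the array's own 75th percentile, so 0 marks a spot as bright as that percentile. Values within a line are listed by replicate number: 0, 1 and 2 in B16-M, B16-D-735 and B16-D-739, 0, 1 and 3 in B16-D and J365-p20, 0, 1, 2 and 1b in B16-D-733 (whose labels use the number 1 for 2 arrays) and 0, 1, 2 and 3 in M0-p20. The arrays lay on 3 slides of 8. B16-D replicate 2 stood apart, with 90.3% of its spots well above background against 46.0% to 55.8% on the other arrays, and it was left out of the values below unless named. B16-D replicate 0 also differed from its companions: of 43 members tested in melanoma it was the highest of the 3 used B16-D arrays for 25, and for 11 by more than 1 log2 unit, while replicates 1 and 3 led by that much for 0 and 2 members. The titles of B16-D replicates 1, 2 and 3 and of B16-D-733 replicates 1, 2 and 1b share a day that no other title carries (the title mark), so in B16-D the mark and replicate 0 cannot be told apart. Values with the mark as a block were added after the values were seen.

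All 7 pigment cell markers were above background on every array of each melanoma line, with a summed level of at least 10.46 and Dct or Mlana brightest, whereas in leukemia Tyrp1, Dct and Mlana were above background on no array, Pmel on 3 of 7 and Tyr, Sox10 and Mitf on every one (Mitf brightest, at 0.66 in M0-p20 and 1.83 in J365-p20, summed level 0.57 to 1.36 and 1.48 to 2.69). All 7 blood cell markers were above background on every leukemia array (summed level 6.34 to 6.83 and 6.58 to 6.72, Coro1a brightest at 5.25 and 5.51), and the melanoma lines had 2 or 3 of them, without Ptprc and Laptm5 on any array. Summed blood cell levels were 0.01 to 0.62 in B16-M, -1.20 to 0.27 in B16-D, -1.56 to -1.13 in B16-D-733, -1.25 to -0.89 in B16-D-735 and -1.32 to -0.80 in B16-D-739, and Lcp1 stood at -0.35, -1.41, -2.80, -3.19 and -2.04. In the same order Coro1a stood at -2.07, -4.22, -3.77, -2.69 and -3.75. The marker Was stood at -3.06, -3.39, -2.92, -2.49 and -3.02, so its mean was not lower in the second-generation lines than in B16-M. Of 7 macrophage markers the melanoma lines had 2 or 3 (Csf1r brightest) and the leukemia lines 4, without C1qa, C1qc and Mrc1 on any array. Of dendritic, B and T and NK cell markers each melanoma line had 1 or 2 on every array, with summed levels of at most 0.51. The T cell marker Cd3e was the brightest, at -0.21 to 0.12 in the melanoma lines against 0.04 in M0-p20 and -0.17 in J365-p20, while Cd3d (2.71 and 1.62) and Cd79b (1.65 and 1.33) were above background in the leukemia lines. Of 4 endothelial markers 0 or 1 was above background on every array of a line (Pecam1). Summed levels of 5 fibroblast markers were -0.73 to -0.42 in B16-M, -0.98 to -0.65 in B16-D, -1.13 to -0.40 in B16-D-733, 0.12 to 0.59 in B16-D-735 and -1.85 to -1.58 in B16-D-739. Col1a2 was at -0.89 in B16-M, -0.15 in B16-D-735 and -2.20 in B16-D-739. In B16-D-735 Col1a1 and Dcn were above background on 3 of 3 arrays (1 of 3 and none in B16-M), Pdgfra on none (3 of 3 in B16-M) and Lum on none in either line. What part these markers have in the results was not tested.

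In short, the second-generation line B16-D-735 carried higher levels of some interferon-stimulated genes than the parental melanoma and of more of them than its fellow dormant lines, whereas B16-D, B16-D-733 and B16-D-739 carried lower levels of some interferon-stimulated genes than B16-M. Of these lower calls, only Oas1a in B16-D and Irf7, Oas2, Rtp4 and Usp18 in B16-D-739 held under every setting. Every such call in B16-D-733 was lost under some setting. Classical class I heavy chains were higher in B16-D-733 and B16-D-739 than in B16-M, each a call lost without some single arrays. M0-p20 had higher levels than B16-M of most MHC genes tested, among them immunoproteasome and peptide transporter genes, and between parental and dormant leukemia the protease gene Usp18 and the RNA-sensing enzyme gene Oas2 rose, both lost with replicate number as a block.

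Of the 53 matched members, 26 were above background on all 23 arrays used and 4 on none with any probe (H2-Aa, H2-Eb1, Cxcl9 and Ifi44). A member was tested where its probe was well above background on at least 3 arrays of a fit, which 43 members passed among the melanoma lines (12 MHC and 31 interferon-stimulated genes), 38 in the leukemia lines (14 and 24) and 46 over all lines (14 and 32). A member measured only where it is high passed through that group, and its p-value follows that selection. Among the melanoma lines Gbp7 passed only through B16-D-735, and it is in every count of rises of that line. Over all lines, members measured in 1 tumour type alone passed through that type. Fold changes are log2 values from limma with Benjamini-Hochberg adjustment over all genes tested, two-sided, with 0.05 as the threshold, and "rose" and "fell" are used only for differences past it. Where a probe was not well above background on any array of a line the fold is a bound, written as at least N-fold: the brighter line's mean set against the dimmer line's mean of, for each array, the higher of the lowest signal among probes well above background and the probe's own signal. For leading genes the fold with slide as a block follows, and often those within slides 1, 2 and 3 (slides 1 and 3 with B16-D, which had no used array on slide 2). Every called member kept its sign within every slide in every comparison, and the slide block ended 2 calls, both given below. Differences of B16-D-735 from the other dormant lines are given in the order B16-D, B16-D-733 and B16-D-739. In bulk RNA, fewer cells of a type and less RNA per cell cannot be told apart.

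Irf7 encodes the factor that amplifies the type I interferon response, and its level was -1.20, -1.27 and -0.58 in B16-M, -1.36, -2.12 and -2.30 in B16-D, -1.02, -1.44, -1.16 and -1.27 in B16-D-733, 0.63, 0.71 and 0.97 in B16-D-735 and -2.31, -2.40 and -2.47 in B16-D-739. In the leukemia lines it stood at 0.74, 1.30, 0.85 and 0.71 in M0-p20 and 1.45, 1.11 and 1.05 in J365-p20. Every B16-D-735 array lay above every other melanoma array and every B16-D-739 array just below all of them, B16-D-733 overlapped B16-M, and the leukemia lines overlapped each other. Irf7 rose in B16-D-735 against B16-M with a log2 fold change of 1.79 (SE 0.24, adjusted p = 0.000451), 1.79 blocked by slide (adjusted p = 0.000736) and 1.29, 1.91 and 2.18 within slides. It fell in B16-D-739 with -1.38 (SE 0.24, adjusted p = 0.00436), -1.38 blocked by slide (adjusted p = 0.0051) and -1.90, -1.13 and -1.11 within slides. B16-D differed from B16-M by -0.91 (adjusted p = 0.0549), which missed the threshold, and by -1.03 (adjusted p = 0.028) with replicate 2 and -0.98 (adjusted p = 0.0418) blocked by slide, which passed it. Irf7 in B16-D-735 exceeded the other dormant lines by 2.70, 2.00 and 3.17 (adjusted p = 1.15e-05, 9.74e-05 and 3.56e-06).

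Irf9 and Stat2 encode partners in the complex that carries the type I interferon signal to DNA. Irf9 stood at 0.20, 0.38 and 0.68 in B16-M, -0.48, -0.10 and -0.36 in B16-D, -0.35, -0.08, 0.14 and -0.16 in B16-D-733, 1.29, 1.89 and 1.82 in B16-D-735 and -0.77, -0.44 and -0.27 in B16-D-739, and at 0.54, 0.70, 0.44 and 0.47 in M0-p20 and 0.89, 0.72 and 1.15 in J365-p20. B16-D-735 was again above all other melanoma arrays, B16-M lay above the other 3 dormant lines without overlap, and J365-p20 lay just above M0-p20. Irf9 rose in B16-D-735 against B16-M with a log2 fold change of 1.25 (SE 0.20, adjusted p = 0.00212), 1.25 blocked by slide (adjusted p = 0.000634) and 1.21, 0.91 and 1.62 within slides. In B16-D-739 it fell with -0.92 (SE 0.20, adjusted p = 0.0205), -0.92 blocked by slide (adjusted p = 0.00584), a call lost without any 1 of B16-M replicates 1 and 2 and B16-D-739 replicates 0 and 1 (adjusted p from 0.0597 to 0.109). For B16-D the difference was -0.73 (adjusted p = 0.0664), and -0.75 (adjusted p = 0.043) with replicate 2. The differences of B16-D-735 from the other dormant lines were 1.98, 1.78 and 2.16 (adjusted p = 4.16e-05, 6.28e-05 and 1.96e-05).

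Stat2 stood at -0.15, 0.25 and 0.58 in B16-M, -1.18, -0.38 and -0.75 in B16-D, -1.11, -0.62, -0.33 and -0.44 in B16-D-733, 0.11, 0.83 and 0.55 in B16-D-735 and -1.23, -0.69 and -0.49 in B16-D-739, and between 1.49 and 1.71 in leukemia. The B16-D-735 and B16-M arrays overlapped, and both lay above every array of the other 3 dormant lines. Against B16-M no dormant line passed the threshold, with -1.0 (adjusted p = 0.0836) in B16-D, -0.85 (adjusted p = 0.095) in B16-D-733, 0.27 (adjusted p = 0.816) in B16-D-735 and -1.03 (adjusted p = 0.077) in B16-D-739, and blocked by slide -1.14 (adjusted p = 0.0322) in B16-D and -1.03 (adjusted p = 0.0372) in B16-D-739. Stat2 rose in B16-D-735 by 1.27, 1.12 and 1.30 (adjusted p = 0.0174, 0.0208 and 0.016). These calls were lost, for B16-D, without any 1 of B16-D replicate 0 and B16-D-735 replicates 1 and 2 (adjusted p from 0.053 to 0.0692), for B16-D-733 without any 1 of B16-D-733 replicates 0 and 1 and B16-D-735 replicates 1 and 2 (adjusted p from 0.0503 to 0.0977), and for B16-D-739 without any 1 of B16-D-735 replicates 1 and 2 and B16-D-739 replicate 0 (adjusted p from 0.0596 to 0.0768). Irf1, an early activator of class I and interferon genes, ranged from 0.50 to 1.80 over the 23 arrays and passed the threshold in no comparison. Irf8, a factor of the myeloid and lymphoid lineages, was above background on no melanoma array and on 1 of 7 leukemia arrays, so it was not tested.

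The oligoadenylate synthetases sense double-stranded RNA and switch on an RNase. Oas1a stood at 1.81, 2.13 and 2.32 in B16-M, 1.08, -0.10 and -0.23 in B16-D, 1.24, 0.96, 1.37 and 1.18 in B16-D-733, 3.32, 3.56 and 3.82 in B16-D-735 and 0.58, 0.70 and 0.72 in B16-D-739, and B16-D replicate 2 read -0.47. In leukemia it was 2.76 to 3.89. The melanoma lines fell into an order without overlap between B16-D-735, B16-M and the others, and J365-p20 lay above M0-p20. Against B16-M, Oas1a fell in B16-D with a log2 fold change of -1.84 (SE 0.28, adjusted p = 0.00245), -1.91 blocked by slide (adjusted p = 0.00312) and -1.84 and -2.04 within slides, or -2.02 (adjusted p = 0.00108) with replicate 2. It fell in B16-D-739 with -1.42 (SE 0.28, adjusted p = 0.0108), -1.42 blocked by slide (adjusted p = 0.0103), a call lost without B16-M replicate 2 (adjusted p = 0.0563) or B16-D-739 replicate 0 (adjusted p = 0.0509). It rose in B16-D-735 with 1.48 (SE 0.28, adjusted p = 0.00682), 1.48 blocked by slide (adjusted p = 0.00658) and 1.23, 1.19 and 2.01 within slides. In B16-D-733 the difference was -0.90 (adjusted p = 0.0675). B16-D-735 exceeded the other dormant lines by 3.32, 2.38 and 2.90 (adjusted p = 8.85e-06, 9.16e-05 and 2.91e-05), and J365-p20 differed from M0-p20 by 0.62 (adjusted p = 0.439).

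Oas2, a larger enzyme of the family, stood at -3.53, -3.19 and -3.37 in B16-M, -6.50, -6.06 and -5.36 in B16-D, -4.57, -4.78, -4.58 and -4.03 in B16-D-733, -3.0, -2.74 and -2.56 in B16-D-735 and -5.68, -5.55 and -6.35 in B16-D-739. It was not well above background on any B16-D or B16-D-739 array, while B16-D replicate 2 read -3.45, above background. Among the melanoma lines that measured it, B16-D-735 was highest, B16-M next and B16-D-733 lowest, with no overlap. Oas2 was higher in B16-M than in B16-D by at least 2.61-fold (adjusted p = 0.000233, and 0.000433 blocked by slide), and with replicate 2 the difference no longer passed (adjusted p = 0.0624). B16-M exceeded B16-D-739 by at least 2.92-fold (adjusted p = 0.000183, and 0.000229 blocked by slide). In B16-D-733 it fell with a log2 fold change of -1.12 (SE 0.27, adjusted p = 0.0274), -1.17 blocked by slide (adjusted p = 0.0146), a call lost without any 1 of B16-M replicates 1 and 2 and B16-D-733 replicates 0, 1 and 2 (adjusted p from 0.0646 to 0.124) and also lost with B16-D replicate 2 in the fit (adjusted p = 0.351). B16-D-735 was higher by at least 3.95-fold (adjusted p = 1.45e-05) against B16-D, 1.72 (adjusted p = 0.0015) against B16-D-733 and at least 4.43-fold (adjusted p = 2.1e-05) against B16-D-739, of which the call against B16-D-733 was lost with B16-D replicate 2 in the fit (adjusted p = 0.0721). In leukemia Oas2 was -0.80, -1.11, -1.08 and -0.86 in M0-p20 and 0.52, 0.73 and 0.64 in J365-p20, with every J365-p20 array above every M0-p20 array. It rose in J365-p20 with 1.59 (SE 0.16, adjusted p = 0.00305), 1.61 blocked by slide (adjusted p = 0.0138) and 1.75, 1.35 and 1.82 within slides.

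Oas3 was above background on every leukemia array (-3.76 to -2.02) and on no melanoma array, and M0-p20 exceeded B16-M by at least 3.68-fold (adjusted p = 2.4e-10, and 3.18e-10 blocked by slide). Oasl1, which restrains translation of Irf7, ranged from -4.96 to -4.70 in B16-M, where 1 of 3 arrays measured it, and from -2.37 to -2.30 in B16-D-735, and it rose there with 2.50 (SE 0.62, adjusted p = 0.0347), a call lost without any 1 of its 6 arrays (adjusted p from 0.0861 to 0.106). Every array of the other 3 dormant lines also read above every B16-M array (-4.04 to -0.71 in B16-D, -3.48 to -3.16 in B16-D-733 and -4.39 to -3.89 in B16-D-739, highest on B16-D replicate 0), with differences of 1.96 (adjusted p = 0.113), 1.53 (adjusted p = 0.173) and 0.65 (adjusted p = 0.812). Oasl2 rose in B16-D-735 by 1.48 (SE 0.36, adjusted p = 0.0322), again lost without any 1 of its 6 arrays (adjusted p from 0.0608 to 0.115).

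Isg15 is a ubiquitin-like protein joined to other proteins during the interferon response, and Usp18 removes it and dampens interferon receptor signalling. Usp18 stood at -2.52, -2.25 and -2.20 in B16-M, -3.03, -3.60 and -3.75 in B16-D, -3.06, -3.12, -3.65 and -3.03 in B16-D-733, -0.80, -0.09 and 0.21 in B16-D-735 and -4.38, -4.18 and -4.89 in B16-D-739. In leukemia it was -1.37, -0.90, -1.08 and -1.32 in M0-p20 and 0.32, 0.65 and 0.50 in J365-p20. B16-D-735 was above every other melanoma array, B16-M came next, B16-D-739 was below all others, B16-D and B16-D-733 overlapped, and J365-p20 lay more than 1 log2 unit above M0-p20. Usp18 rose in B16-D-735 against B16-M with a log2 fold change of 2.10 (SE 0.28, adjusted p = 0.000506), 2.10 blocked by slide (adjusted p = 0.00141) and 2.11, 1.46 and 2.73 within slides. It fell in B16-D-739, where 2 of 3 arrays measured it, with -2.16 (SE 0.28, adjusted p = 0.000492), -2.16 blocked by slide (adjusted p = 0.00144) and -2.69, -1.92 and -1.86 within slides. In B16-D it fell with -1.13 (SE 0.28, adjusted p = 0.0438), -1.12 blocked by slide (adjusted p = 0.0632), so the call was lost with the block, and also without any 1 of B16-M replicates 0, 1 and 2 and B16-D replicates 1 and 3 (adjusted p from 0.0636 to 0.156). B16-D-733 differed from B16-M by -0.89 (adjusted p = 0.0729). B16-D-735 exceeded the other dormant lines by 3.23, 2.99 and 4.26 (adjusted p = 1.07e-05, 1.23e-05 and 1.49e-06). Usp18 rose in J365-p20 against M0-p20 with 1.66 (SE 0.18, adjusted p = 0.00503), 1.60 blocked by slide (adjusted p = 0.00969) and 1.40, 1.67 and 1.73 within slides.

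Isg15 itself stood at 1.39, 1.73 and 1.88 in B16-M, 2.41, 0.45 and 0.35 in B16-D, 0.62, 0.50, 0.86 and 0.81 in B16-D-733, 2.08, 2.47 and 2.85 in B16-D-735 and -0.07, 0.82 and 0.95 in B16-D-739, and at -1.15, -1.55, -1.35 and -1.34 in M0-p20 and -1.03, -1.0 and -1.37 in J365-p20. B16-D-735 lay above B16-M without overlap, B16-D-733 and B16-D-739 lay below B16-M, and B16-D spanned both sides, with replicate 0 at 2.41 and replicates 1 and 3 below 1. No dormant melanoma line passed against B16-M, with -0.60 (adjusted p = 0.576) in B16-D, -0.97 (adjusted p = 0.251) in B16-D-733, 0.80 (adjusted p = 0.444) in B16-D-735 and -1.10 (adjusted p = 0.275) in B16-D-739. Isg15 rose in B16-D-735 against B16-D-733 by 1.77 (adjusted p = 0.0204), a call lost without any 1 of B16-D-733 replicate 1 and B16-D-735 replicates 1 and 2 (adjusted p from 0.056 to 0.0948). Against B16-D-739 it rose by 1.90 (adjusted p = 0.023), a call lost without any 1 of B16-D-735 replicates 1 and 2 and B16-D-739 replicates 0 and 1 (adjusted p from 0.0513 to 0.102). Trim25, a ligase that carries Isg15 and activates RNA sensing, fell in B16-D with -0.82 (SE 0.18, adjusted p = 0.0255), a call lost without any 1 of B16-M replicates 1 and 2 and B16-D replicates 1 and 3 (adjusted p from 0.053 to 0.102). In B16-D-733 Trim25 fell with -0.74 (SE 0.17, adjusted p = 0.0212), lost without any 1 of B16-M replicates 1 and 2 and B16-D-733 replicates 0, 1 and 1b (adjusted p from 0.054 to 0.101). It rose in B16-D-735 with 0.84 (SE 0.18, adjusted p = 0.0161), lost without any 1 of B16-M replicates 0 and 1 and B16-D-735 replicate 1 (adjusted p from 0.0587 to 0.076).

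The Ifit proteins bind foreign RNA, Rsad2 makes a chain-terminating nucleotide and Bst2 tethers budding virus. Ifit3 stood at -1.63, -1.68 and -1.16 in B16-M, -0.59, -1.60 and -2.45 in B16-D, -1.87, -2.16, -1.95 and -2.07 in B16-D-733, -0.35, -0.10 and -0.13 in B16-D-735 and -2.84, -1.81 and -1.81 in B16-D-739. It was not well above background on any leukemia array. B16-D-735 lay above every other melanoma array, with B16-D replicate 0 (-0.59) the highest of the rest. No dormant line passed against B16-M, B16-D-735 differing by 1.30 (adjusted p = 0.0775), and 1.30 (adjusted p = 0.0275) blocked by slide. B16-D-735 exceeded the other dormant lines by 1.36, 1.82 and 1.96 (adjusted p = 0.0467, 0.00684 and 0.00732), of which the call against B16-D was lost without any 1 of B16-D replicates 1 and 3 and B16-D-735 replicates 0, 1 and 2 (adjusted p from 0.0866 to 0.143).

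Rsad2 ranged over -1.17 to -0.92 in B16-M and -2.55 to -0.69 in the dormant melanoma lines, and on no leukemia array was it well above background. B16-D, B16-D-733 and B16-D-739 lay below B16-M without overlap, and B16-D-735 overlapped it. Rsad2 fell in B16-D-739 with -1.01 (SE 0.21, adjusted p = 0.0174), a call lost without any 1 of B16-M replicates 1 and 2 and B16-D-739 replicates 0 and 1 (adjusted p from 0.0538 to 0.0775). Bst2 stood at 3.65, 3.45 and 3.87 in B16-M, 3.1, 3.12 and 2.80 in B16-D, 2.80, 2.78, 3.14 and 2.77 in B16-D-733, 4.05, 4.27 and 4.13 in B16-D-735 and 2.73, 2.78 and 3.38 in B16-D-739, and between 2.53 and 3.95 in leukemia. B16-D-735 was highest, B16-M next and the other 3 dormant lines lower, all without overlap. Bst2 fell in B16-D-733 with -0.79 (SE 0.17, adjusted p = 0.0154), -0.76 blocked by slide (adjusted p = 0.00043), a call lost without B16-M replicate 2 (adjusted p = 0.0832). In B16-D-739 the difference was -0.70 (adjusted p = 0.0543) and in B16-D -0.65 (adjusted p = 0.0717), and -0.70 (adjusted p = 0.00158) and -0.78 (adjusted p = 0.00147) blocked by slide. In B16-D-735 it was 0.49 (adjusted p = 0.172), and 0.49 (adjusted p = 0.0105) blocked, and the line exceeded the other dormant lines by 1.14, 1.28 and 1.19 (adjusted p = 0.0017, 0.000468 and 0.00139).

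Ifih1 and Dhx58 encode sensors of double-stranded RNA. Ifih1 ranged over -1.84 to -1.30 in B16-M and -2.79 to -0.54 in the dormant melanoma lines, and was not well above background in leukemia. B16-D-735 lay above all others. It differed from B16-M by 0.84 (adjusted p = 0.157), below the threshold, and rose by 1.53, 1.63 and 1.56 (adjusted p = 0.0078, 0.00319 and 0.00722). Dhx58 ranged over -3.48 to -3.36 in B16-M and -3.64 to -1.72 in the dormant melanoma lines, and between -4.15 and -3.64 in leukemia. B16-D-735 was above every other array used. Dhx58 rose there against B16-M with 1.33 (SE 0.16, adjusted p = 0.000241), 1.33 blocked by slide (adjusted p = 0.000136). The differences from the other dormant lines were 1.13, 1.18 and 1.43 (adjusted p = 0.000859, 0.000378 and 0.000134). Zbp1, a sensor of left-handed nucleic acid, passed in no comparison and split by slide instead: on slide 1 it ranged from -3.83 to -2.96 over 6 melanoma arrays, on slide 2 from 0.10 to 0.29 over 4 and on slide 3 from -0.14 to 0.71 over 6.

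Guanylate-binding proteins coat and break open pathogen compartments. Gbp7 was above background on all 3 arrays of B16-D-735 (-3.40, -2.87 and -2.88), on 1 of 3 of B16-D-739 and on none of the other melanoma lines. It passed the filter only through B16-D-735, so the p-values below follow a selection by the line where it is high. B16-D-735 exceeded B16-M by at least 3.62-fold (adjusted p = 0.00032, and 0.000228 blocked by slide), B16-D by at least 3.25-fold (adjusted p = 8.6e-06) and B16-D-733 by at least 3.77-fold (adjusted p = 0.000973), and B16-D-739 by a log2 fold change of 2.08 (adjusted p = 0.00202). With B16-D replicate 2 in the fit, where Gbp7 read -2.04, none of these passed (adjusted p = 0.232, 0.112, 0.256 and 0.358). Gbp3 stood at -2.66, -2.72 and -2.50 in B16-M, -1.77, -3.56 and -3.36 in B16-D, -2.54, -2.93, -3.13 and -2.95 in B16-D-733, -1.27, -1.23 and -1.07 in B16-D-735 and -3.44, -3.30 and -3.14 in B16-D-739, and was not well above background in leukemia. Gbp3 rose in B16-D-735 against B16-M with 1.43 (SE 0.35, adjusted p = 0.0305), a call lost without any 1 of its 6 arrays (adjusted p from 0.0707 to 0.107). The differences from the other dormant lines were 1.70, 1.69 and 2.10 (adjusted p = 0.00909, 0.00589 and 0.00243). Gbp2 ranged from -1.82 to 0.68 in melanoma, highest on B16-D replicate 0, and passed among these lines in no comparison unless the title mark was a block.

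Rtp4 encodes a chaperone for receptors that is strongly induced by interferon. It stood at -1.73, -1.28 and -1.19 in B16-M, -1.20, -1.95 and -2.35 in B16-D, -1.64, -1.90, -1.76 and -2.02 in B16-D-733, 0.35, 0.79 and 1.39 in B16-D-735 and -3.32, -3.17 and -2.62 in B16-D-739, and was not well above background on any leukemia array. B16-D-735 lay above and B16-D-739 below every other melanoma array, and the remaining lines overlapped. Rtp4 rose in B16-D-735 against B16-M with 2.24 (SE 0.31, adjusted p = 0.000659), 2.24 blocked by slide (adjusted p = 0.000821) and 1.98, 1.63 and 3.12 within slides. It fell in B16-D-739 with -1.63 (SE 0.31, adjusted p = 0.00851), -1.63 blocked by slide (adjusted p = 0.00792). The differences of B16-D-735 from the other dormant lines were 2.68, 2.67 and 3.88 (adjusted p = 0.000142, 8.15e-05 and 6.57e-06).

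Xaf1, which antagonises an inhibitor of apoptosis, stood at -1.58, -1.17 and -0.94 in B16-M, -1.67, -3.45 and -3.31 in B16-D, -2.81, -2.85, -2.97 and -2.72 in B16-D-733, -0.15, 0.09 and 0.27 in B16-D-735 and -2.08, -3.71 and -3.62 in B16-D-739, and between -3.35 and -2.22 in leukemia. B16-D-735 lay above B16-M, and B16-M above every array of the other 3 lines. Xaf1 fell in B16-D-733 with -1.61 (SE 0.43, adjusted p = 0.0473), a call lost without any 1 of its 7 arrays (adjusted p from 0.0652 to 0.17). In B16-D-739 it fell with -1.91 (SE 0.46, adjusted p = 0.0375), lost without any 1 of B16-M replicates 0, 1 and 2 and B16-D-739 replicates 1 and 2 (adjusted p from 0.058 to 0.154). B16-D differed by -1.58 (adjusted p = 0.0851). B16-D-735 differed from B16-M by 1.30 (adjusted p = 0.149) and exceeded the other dormant lines by 2.88, 2.91 and 3.21 (adjusted p = 0.00175, 0.00106 and 0.000892). Parp14, a mono-ADP-ribosyltransferase, stood at -1.18, -1.17 and -1.02 in B16-M, -2.25, -2.12 and -2.64 in B16-D, -2.14, -2.33, -2.23 and -2.36 in B16-D-733, -1.19, -0.63 and -0.36 in B16-D-735 and -2.85, -2.53 and -1.96 in B16-D-739, and between 0.07 and 0.48 in leukemia. B16-M and B16-D-735 overlapped, and both were above the other 3 dormant lines.

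Parp14 fell in those 3 lines, in B16-D with -1.21 (SE 0.23, adjusted p = 0.0121), -1.32 blocked by slide (adjusted p = 0.00603), in B16-D-733 with -1.14 (SE 0.22, adjusted p = 0.00733) and in B16-D-739 with -1.33 (SE 0.23, adjusted p = 0.00536). The call in B16-D was lost without B16-M replicate 2 (adjusted p = 0.0532). B16-D-735 exceeded those lines by 1.61, 1.54 and 1.72 (adjusted p = 0.000911, 0.000798 and 0.000584). Cxcl10, a chemokine that draws activated T cells, stood at 0.29, 0.98 and 1.01 in B16-M, 0.73, 1.39 and 1.67 in B16-D, 1.73, 2.58, 2.38 and 2.40 in B16-D-733, 1.50, 1.59 and 2.05 in B16-D-735 and 0.53, 1.80 and 1.59 in B16-D-739, and at -3.49 to -2.05 in leukemia. All arrays of B16-D-733 and B16-D-735 lay above B16-M, and B16-D and B16-D-739 overlapped it. Cxcl10 rose in B16-D-733 with 1.51 (SE 0.33, adjusted p = 0.0171), 1.51 blocked by slide (adjusted p = 0.0249) and 1.36, 0.75 and 2.20 within slides, a call lost without B16-M replicate 0 (adjusted p = 0.0707) or B16-D-733 replicate 1 (adjusted p = 0.0544).

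**Figure D1:**
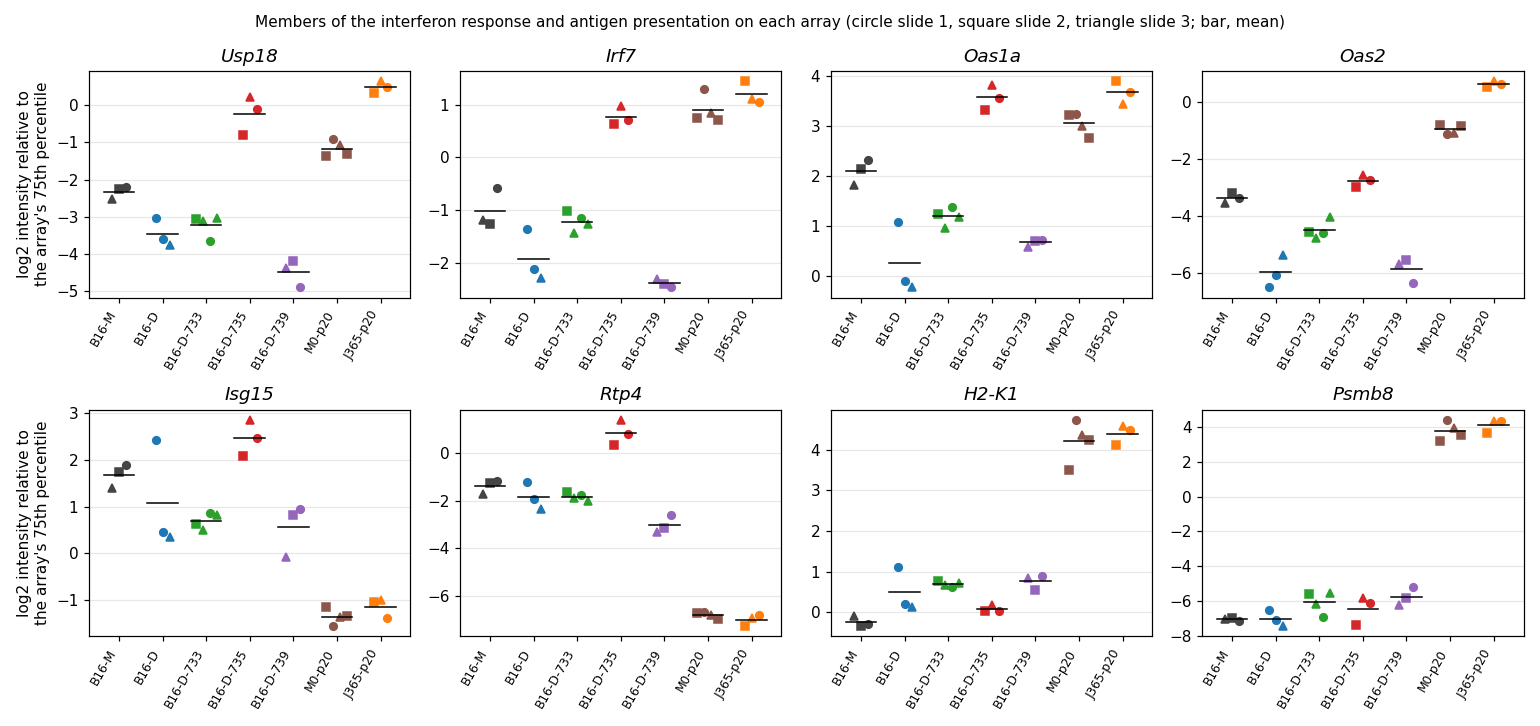
Log2 level relative to the 75th percentile of each array (vertical axis) for 8 members in the 7 lines, 1 point per array with its shape showing the slide (circle 1, square 2, triangle 3) and a bar at the line's mean. The B16-D-735 points of Usp18, Irf7, Oas1a, Oas2, Isg15 and Rtp4 lie above those of B16-M, and the Psmb8 points of the melanoma lines are not well above background.

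Turning to presentation, H2-K1 encodes a classical class I heavy chain and stood at -0.08, -0.34 and -0.29 in B16-M, 1.11, 0.21 and 0.14 in B16-D, 0.77, 0.66, 0.61 and 0.73 in B16-D-733, 0.03, 0.03 and 0.18 in B16-D-735 and 0.85, 0.54 and 0.90 in B16-D-739. In leukemia it was 3.50, 4.73, 4.37 and 4.24 in M0-p20 and 4.12, 4.57 and 4.48 in J365-p20. Every dormant melanoma array lay above every B16-M array, and B16-D-735 lay closest to it. H2-K1 rose against B16-M in B16-D-733 with a log2 fold change of 0.92 (SE 0.19, adjusted p = 0.0132), 0.92 blocked by slide (adjusted p = 0.0175) and 0.89, 1.11 and 0.77 within slides, a call lost without B16-M replicate 1 (adjusted p = 0.0681) or B16-M replicate 2 (adjusted p = 0.0576). It rose in B16-D-739 with 1.00 (SE 0.21, adjusted p = 0.0158), 1.00 blocked by slide (adjusted p = 0.0204) and 1.18, 0.88 and 0.92 within slides, a call lost without any 1 of B16-M replicates 1 and 2 and B16-D-739 replicates 0 and 2 (adjusted p from 0.0636 to 0.0739). In B16-D the difference was 0.72 (adjusted p = 0.0824) and in B16-D-735 0.31 (adjusted p = 0.564). A second H2-K1 probe, also above background on every array, differed from B16-M by 0.76 in B16-D, 1.31 in B16-D-733, 0.22 in B16-D-735 and 1.98 in B16-D-739, the same signs.

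H2-D1, the other classical heavy chain on the array list, stood at 1.55, 1.35 and 1.73 in B16-M, 2.53, 2.00 and 1.64 in B16-D, 2.54, 2.18, 2.48 and 2.31 in B16-D-733, 1.80, 2.08 and 1.80 in B16-D-735 and 2.39, 2.22 and 2.56 in B16-D-739, and between 2.41 and 3.96 in leukemia. B16-D-733, B16-D-735 and B16-D-739 lay above B16-M without overlap, and B16-D overlapped it. H2-D1 rose in B16-D-733 with 0.83 (SE 0.19, adjusted p = 0.0194), 0.86 blocked by slide (adjusted p = 0.00453), a call lost without any 1 of B16-M replicates 0 and 1 and B16-D-733 replicates 0 and 2 (adjusted p from 0.0526 to 0.105) or with B16-D replicate 2 in the fit (adjusted p = 0.0645). In B16-D-739 it rose with 0.85 (SE 0.20, adjusted p = 0.0334), 0.85 blocked by slide (adjusted p = 0.00898), lost without any 1 of its 6 arrays (adjusted p from 0.053 to 0.152) or with that array in the fit (adjusted p = 0.106). H2-T23, the heavy chain of Qa-1, ranged over 0.35 to 0.49 in B16-M and 0.59 to 1.70 in the dormant melanoma lines, with every dormant array above B16-M. It rose in B16-D-733 with 0.85 (SE 0.20, adjusted p = 0.0223), lost without any 1 of B16-M replicates 0, 1 and 2 and B16-D-733 replicates 0 and 2 (adjusted p from 0.0552 to 0.0982). In B16-D-739 it rose with 0.86 (SE 0.21, adjusted p = 0.0381), lost without any 1 of its 6 arrays (adjusted p from 0.0847 to 0.144) or with B16-D replicate 2 in the fit (adjusted p = 0.0603). B2m, the light chain shared by class I molecules, ranged from 4.32 to 5.15 in melanoma and from 4.88 to 6.31 in leukemia, and none of the dormant lines passed against its parental line.

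Tapbp, the bridge that holds class I molecules to the peptide transporter, ranged over 1.62 to 2.35 in B16-M and 0.92 to 1.71 in the dormant melanoma lines. B16-D-733 and B16-D-739 lay below B16-M without overlap, while B16-D and B16-D-735 overlapped it. Tapbp fell in B16-D-733 with -1.04 (SE 0.21, adjusted p = 0.00907), a call lost without B16-M replicate 1 (adjusted p = 0.0516) or B16-M replicate 2 (adjusted p = 0.0553). In B16-D-739 it fell with -0.95 (SE 0.22, adjusted p = 0.0306), lost without any 1 of B16-M replicates 1 and 2 and B16-D-739 replicates 0 and 1 (adjusted p from 0.104 to 0.137). Erap1, which trims peptides for class I, ranged over -3.87 to -3.28 in B16-M and -4.56 to -4.39 in B16-D-735. Erap1 fell in B16-D-735 with -0.92 (SE 0.17, adjusted p = 0.007). Psmb10, a catalytic subunit of the immunoproteasome, ranged over 3.28 to 3.56 in B16-M and 3.57 to 4.09 in the dormant melanoma lines, with every dormant array above every B16-M array. It rose in B16-D-735 with 0.63 (SE 0.11, adjusted p = 0.00281).

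The other catalytic immunoproteasome subunits separated the tumour types. Psmb8 was not well above background on any of the 16 melanoma arrays and stood at 3.21, 4.40, 3.96 and 3.55 in M0-p20 and 3.65, 4.33 and 4.36 in J365-p20, and M0-p20 exceeded B16-M by at least 411-fold (adjusted p = 1.07e-14, and 1.04e-13 blocked by slide). Psmb9 ranged over -4.62 to -4.47 in B16-M and -5.27 to -3.29 in the dormant melanoma lines, against 3.67, 4.65, 4.35 and 4.11 in M0-p20 and 3.96, 4.65 and 4.76 in J365-p20. Its leukemia arrays lay more than 6 log2 units above every melanoma array, and M0-p20 exceeded B16-M by 8.73 (SE 0.27, adjusted p = 8.02e-16). Within melanoma, B16-D measured Psmb9 on 1 of 3 arrays, and B16-D-735 exceeded it by 1.05 (adjusted p = 0.0288), a call lost without any 1 of B16-D replicates 0 and 1 and B16-D-735 replicates 1 and 2 (adjusted p from 0.0799 to 0.126) or with B16-D replicate 2 (adjusted p = 0.59). Tap1, 1 subunit of the transporter that moves peptides into the endoplasmic reticulum, ranged over -2.38 to -2.01 in B16-M and -2.47 to -0.93 in the dormant melanoma lines, against 2.19, 2.74, 2.82 and 2.65 in M0-p20 and 2.22, 2.92 and 2.62 in J365-p20. M0-p20 exceeded B16-M by 4.75 (SE 0.28, adjusted p = 1.77e-11), and for its partner Tap2 by 5.94 (adjusted p = 8.19e-14).

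Nlrc5, the transactivator of class I genes, ranged over -5.29 to -4.64 in B16-M and -4.82 to -3.51 in the dormant melanoma lines, against -0.36, -0.28, -0.30 and -0.17 in M0-p20 and 0.13, 0.58 and 0.85 in J365-p20. B16-M, where 1 of 3 arrays measured it, was lowest on average, and J365-p20 lay above M0-p20. M0-p20 exceeded B16-M by 4.71 (SE 0.26, adjusted p = 7.12e-12). No dormant line passed against its parental line, J365-p20 differing by 0.80 (adjusted p = 0.244) and B16-D-733 by 0.99 (adjusted p = 0.0638), and with slide as a block by 1.00 (adjusted p = 0.0429).

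Class II genes were near background in most lines, and none was tested among the melanoma lines. Ciita, the transactivator of class II genes, was above background on 2 of 23 arrays with its brightest probe, while its second probe was above background on 6 of 7 leukemia arrays and on 0 of 16 melanoma arrays. H2-Aa and H2-Eb1, which encode class II chains, were above background on no array, and H2-Ab1 on 1 with any of its probes. Cd74, the invariant chain that guides class II molecules, was above background on every leukemia array, at -3.27, -3.15, -3.47 and -3.55 in M0-p20 and -2.03, -3.72 and -3.15 in J365-p20, and on 2 of 16 melanoma arrays. M0-p20 exceeded B16-M by at least 2.91-fold (adjusted p = 0.000609, and 0.000946 blocked by slide).

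The question of what differs between parental and dormant melanoma was asked of 4 lines, which share the B16-M arrays, so their values are set side by side. In B16-D, 0 of 43 members tested passed higher and 6 lower, 5 of them measured in at least 1 line, where 3.6% of all genes tested passed (2.0% higher and 1.6% lower). All 6 were interferon-stimulated effectors, and the median log2 fold change was 0.09 over 12 MHC genes and -0.60 over 31 interferon-stimulated genes, against -0.04 over all genes. With members below background in 1 line at their bound, and without those below it in both, the median of interferon-stimulated genes was -0.49. Medians were 0.04 and -0.58 with slide as a block, and within slides 1 and 3 they were 0.22 and -0.06 for MHC and -0.47 and -0.62 for interferon-stimulated genes. The sixth, Gbp7, was below background on every array of both lines, so it is no measured fall, and was lost without any 1 of B16-M replicates 1 and 2 and B16-D replicates 1 and 3 (adjusted p from 0.123 to 0.196). In limma 23 members stood at an unadjusted p under 0.05. Calls also lost: with each of normexp and replicate number as a block those of Gbp7 and Usp18, with quantile normalization that of Usp18, with no filter those of Gbp7, Trim25 and Usp18, with probes averaged that of Parp14. The count was 7 with replicate 2, 11 with slide as a block, 3 without B16-M replicate 1, 2 without B16-M replicate 2 and 12 without B16-D replicate 0. With replicate 2 the calls of Oas2 (adjusted p = 0.0624) and Gbp7 (adjusted p = 0.989) were lost. Without B16-D replicate 0 the medians were -0.18 and -0.70. With the title mark as a block, which ended the named calls of Gbp7, Parp14, Trim25 and Usp18, the count was 11 (5 higher and 6 lower) and the medians 0.39 and -0.47, and within unmarked arrays they were 0.58 and -0.39. Among the named genes H2-K1, H2-D1 and Gbp2 then also passed higher and Irf9 and Stat2 lower.

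In B16-D-733, 4 members rose and 6 fell, where 5.56% of all genes tested passed (3.18% higher and 2.39% lower). By role, 3 class I genes rose and 1 fell, 1 effector rose and 5 fell, and none of 5 transcription factors tested passed (2 at an unadjusted p under 0.05 in limma). Medians were 0.21 for MHC and -0.45 for interferon-stimulated genes (-0.52 at the bounds), against 0.03 over all genes. They were 0.24 and -0.43 with slide as a block, and within slides 1, 2 and 3 they were 0.15, 0.32 and 0.23 for MHC and -0.63, -0.35 and -0.32 for interferon-stimulated genes. The count of 10 became 15 with the replicate number, which pairs these samples, as a block, 8 with B16-D replicate 2 in the fit, 11 with slide as a block, 3 without B16-M replicate 1 or replicate 2, and 6 without B16-D-733 replicate 0 or replicate 2. Further calls ended: with quantile normalization those of Oas2 and Xaf1, with no filter those of H2-T23, Oas2, Trim25 and Xaf1, with probes averaged those of Oas2, Parp14 and Xaf1, with replicate number as a block that of Xaf1. With the title mark as a block, which ended the named calls of Bst2, Cxcl10, Parp14, Tapbp, Trim25 and Xaf1, the count was 6 (4 higher and 2 lower) and the medians 0.53 and -0.29, and within unmarked arrays they were 0.37 and -0.38. Every blood cell marker sum (-1.56 to -1.13) lay below those of B16-M (0.01 to 0.62), and their part was not tested.

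In B16-D-735, 13 members rose and 1 fell, where 5.03% of all genes tested passed (3.07% higher and 1.96% lower). Of 31 interferon-stimulated genes tested 12 rose, among them 2 of 5 transcription factors and 10 of 26 effectors, and of 12 MHC genes 1 rose and 1 fell. Among those effectors Gbp7 passed the filter only through B16-D-735. Medians were 0.31 and 0.84, against -0.01 over all genes. With slide as a block they were 0.31 and 0.84, and within slides 1, 2 and 3 they were 0.33, 0.32 and 0.26 for MHC and 0.65, 0.60 and 1.30 for interferon-stimulated genes. The count of 14 became 10 with B16-D replicate 2 in the fit, where Oasl1 (adjusted p = 0.0977), Oasl2 (adjusted p = 0.0825), Gbp7 (adjusted p = 0.232) and Ifi35 (adjusted p = 0.121) no longer passed, 16 with slide as a block, and 9 without B16-M replicate 0, B16-M replicate 1 or B16-D-735 replicate 1. The call of Ifi35 was also lost without any 1 of B16-M replicates 0 and 1 and B16-D-735 replicates 0, 1 and 2 (adjusted p from 0.0573 to 0.167). Other losses among the named calls were: with normexp those of Oasl1 and Oasl2, with quantile normalization that of Oasl2, with no filter those of Gbp3, Oasl1 and Oasl2, with probes averaged that of Oasl1. Fibroblast marker sums (0.12 to 0.59) all lay above those of B16-M (-0.73 to -0.42) and blood cell sums (-1.25 to -0.89) below them (0.01 to 0.62), and their part was not tested.

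In B16-D-739, 3 members rose and 10 fell, where 3.71% of all genes tested passed (2.15% higher and 1.55% lower). By role, 3 class I genes rose and 1 fell, while 2 of 5 transcription factors and 7 of 26 effectors fell. Medians were 0.27 and -0.67, against 0.00 over all genes. With slide as a block they were 0.27 and -0.67, and within slides 1, 2 and 3 they were 0.29, 0.30 and 0.18 for MHC and -0.64, -0.58 and -0.74 for interferon-stimulated genes. The count of 13 became 16 with the replicate number, which pairs these samples too, as a block, 11 with B16-D replicate 2 in the fit, 17 with slide as a block, 6 without B16-M replicate 1, 5 without B16-M replicate 2, 7 without B16-D-739 replicate 0 and 8 without B16-D-739 replicate 1. Replicate number and slide coincide in B16-M and B16-D-739, so the pairing by number cannot be told apart from slide. Named calls were lost too under other settings: with normexp those of H2-T23 and Rsad2, with quantile normalization that of Xaf1, with no filter those of H2-D1, H2-T23, Tapbp and Xaf1, with probes averaged those of Parp14, Tapbp and Xaf1. Fibroblast (-1.85 to -1.58) and blood cell marker sums (-1.32 to -0.80) all lay below those of B16-M, and their part was not tested.

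**Figure D2:**
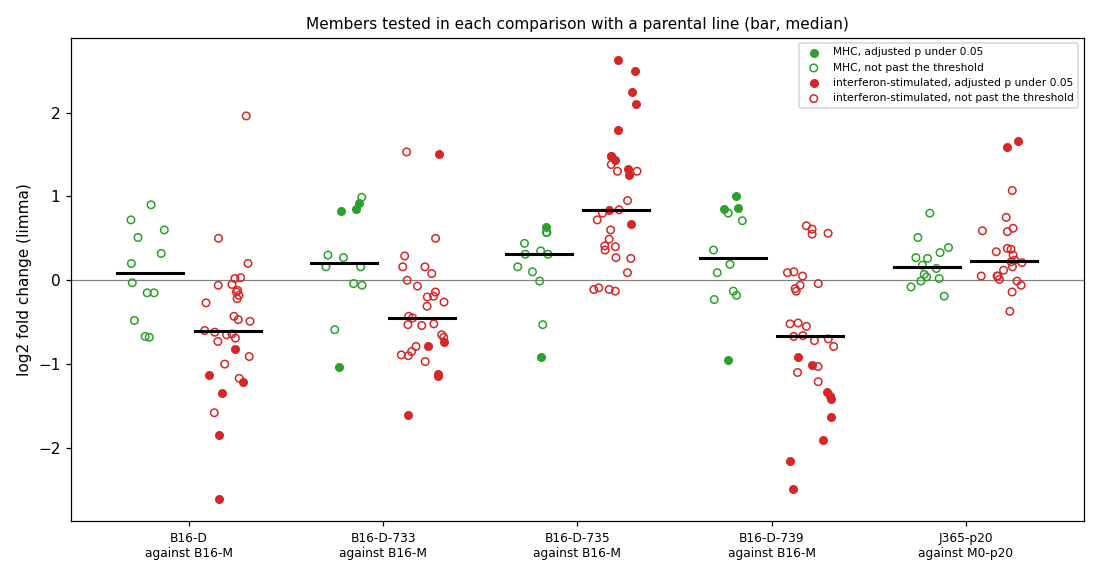
Log2 fold change from limma (vertical axis) of every tested member in the 5 comparisons of a dormant line with the parental line of its model. These are the dormant melanoma lines against B16-M, and J365-p20 against M0-p20. MHC and interferon-stimulated genes are side by side, filled where the adjusted p was under 0.05, with a bar at the median. Fold changes of members not well above background in 1 or both lines are plotted as fitted and are not measured folds.

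The second-generation lines were also compared with B16-D, whose 3 arrays these comparisons share. In B16-D-733, 2 of 43 members passed higher and 0 lower, 1 of them measured in either line, where 0.481% of all genes tested passed (0.411% higher and 0.0699% lower), while 6 reached an unadjusted p under 0.05 in limma. The 2 were Oas2, higher by at least 1.2-fold (adjusted p = 0.0261, and 0.056 blocked by slide) and lost with that block, without any 1 of B16-D replicates 0 and 1 and B16-D-733 replicates 0, 1b and 2 (adjusted p from 0.0666 to 0.13), and Gbp7, below background on every array of both lines, so no measured rise, and lost without any 1 of B16-D replicates 1 and 3 and B16-D-733 replicates 1 and 2 (adjusted p from 0.0542 to 0.0918) and with replicate number as a block. Medians were 0.09 and 0.03, against 0.02 over all genes, 0.18 and 0.13 with slide as a block, and within slides 1 and 3 they were -0.06 and 0.45 for MHC and 0.03 and 0.29 for interferon-stimulated genes. The count was 0 with replicate 2 in limma (5 at an unadjusted p under 0.05), 1 with slide as a block, 4 without B16-D replicate 0, 0 without B16-D replicate 1 or B16-D-733 replicate 2, and 1 without B16-D replicate 3 or B16-D-733 replicate 0, 1 or 1b. With the title mark as a block the count was 2 (2 higher and 0 lower) and the medians 0.10 and 0.06, and within unmarked arrays they were -0.25 and -0.03. Within marked arrays they were 0.48 and 0.19.

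In B16-D-739 against B16-D, 1 member passed higher and 0 lower, where 0.309% of all genes tested passed (0.23% higher and 0.0782% lower). It was Gbp7, measured on 1 of 3 B16-D-739 arrays and on none of B16-D (adjusted p = 0.0308), with no fold given because its mean did not exceed the B16-D floor, and it was lost without any 1 of B16-D replicates 1 and 3 and B16-D-739 replicates 1 and 2 (adjusted p from 0.123 to 0.181) and with replicate number as a block. Medians were 0.19 and -0.05, against 0.01 over all genes, 0.27 and 0.02 with slide as a block, and within slides 1 and 3 they were 0.06 and 0.34 for MHC and -0.07 and -0.21 for interferon-stimulated genes. Unadjusted p values under 0.05 were reached by 6 members in limma. The count was 0 with replicate 2 (9 at an unadjusted p under 0.05), 1 with slide as a block, 2 without B16-D replicate 0 or B16-D-739 replicate 0, and 0 without B16-D replicate 1 or 3 or B16-D-739 replicate 1 or 2. With the title mark as a block, which ended the named call of Gbp7, the count was 1 (0 higher and 1 lower) and the medians -0.08 and -0.15, and within unmarked arrays they were -0.29 and -0.20. The 1 was then Gbp2, and the MHC median turned its sign.

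B16-D-735 against B16-D gave 20 members that rose and 0 that fell, where 8.0% of all genes tested passed (4.07% higher and 3.93% lower), and 25 members stood at an unadjusted p under 0.05 in limma. Of these, 3 of 5 transcription factors and 16 of 26 effectors rose, with 1 of 12 class I genes (Psmb9). Medians were 0.08 and 1.36, against 0.04 over all genes, 0.18 and 1.43 with slide as a block, and within slides 1 and 3 they were 0.01 and 0.16 for MHC and 1.16 and 1.81 for interferon-stimulated genes. The count was 18 with replicate 2, where Psmb9 (adjusted p = 0.59), Gbp7 (adjusted p = 0.112) and Dhx58 (adjusted p = 0.13) no longer passed, 20 with slide as a block, and 17 to 23 with any 1 array left out. Other settings ended these: with normexp that of Psmb9, with each of quantile normalization and replicate number as a block that of Ifit3, with no filter those of Ifit3 and Psmb9, with probes averaged that of Stat2. With the title mark as a block, which ended the named calls of Ifit3 and Psmb9, the count was 20 (18 higher and 2 lower) and the medians -0.09 and 1.13, and within unmarked arrays they were -0.40 and 1.11. The 2 lower were Gbp2 and H2-K1. The MHC median turned its sign there and with replicate number as a block (-0.14). Fibroblast marker sums in B16-D-735 (0.12 to 0.59) all lay above those of B16-D (-0.98 to -0.65), and their part was not tested.

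B16-D-735 was then set against B16-D-733 and B16-D-739, comparisons added after the values were seen. Against B16-D-733, 21 members rose and 0 fell, where 8.56% of all genes tested passed (4.27% higher and 4.29% lower), and 27 stood at an unadjusted p under 0.05 in limma. All 21 were among the 31 interferon-stimulated genes, and the medians were -0.02 and 1.38, against -0.03 over all genes, -0.05 and 1.30 with slide as a block, and within slides 1, 2 and 3 they were 0.03, -0.12 and 0.13 for MHC and 1.27, 1.25 and 1.56 for interferon-stimulated genes. The median of MHC genes turned to 0.01 with another background correction (normexp). Against B16-D-739, 21 rose and 1 fell, where 6.86% of all genes tested passed (3.58% higher and 3.27% lower). The 21 were again interferon-stimulated genes and the 1 was Erap1, at -0.78 (adjusted p = 0.016), lost without any 1 of B16-D-735 replicates 1 and 2 and B16-D-739 replicate 2 (adjusted p from 0.0564 to 0.0652). Medians were -0.12 and 1.43 (1.50 at the bounds), against -0.01 over all genes, -0.12 and 1.43 with slide as a block, and within slides 1, 2 and 3 they were -0.17, -0.30 and 0.08 for MHC and 1.32, 1.26 and 2.09 for interferon-stimulated genes. The counts were 19 and 21 with B16-D replicate 2 in the fit, 23 and 22 with slide as a block, and 18 to 21 and 19 to 22 with any 1 array left out. With probes averaged the Stat2 calls were lost in both. For B16-D-733, with the title mark as a block, which ended the named calls of Gbp3, Ifit3 and Isg15, the count was 20 (16 higher and 4 lower) and the medians -0.12 and 1.17, and within unmarked arrays they were -0.05 and 1.41. Gbp2, H2-K1 and H2-D1 then passed lower. Against B16-D-739 that count was 24. Fibroblast marker sums in B16-D-735 (0.12 to 0.59) also lay above those of B16-D-733 (-1.13 to -0.40) and B16-D-739 (-1.85 to -1.58), and their part was not tested.

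In leukemia, where J365-p20 was compared with M0-p20, 2 of 38 members tested rose and 0 fell, where 1.07% of all genes tested passed (0.488% higher and 0.579% lower), and 7 members stood at an unadjusted p under 0.05 in limma. These 2 were Usp18 and Oas2, with values given above. Medians were 0.16 over 14 MHC genes and 0.23 over 24 interferon-stimulated genes, against -0.02 over all genes, 0.06 and 0.23 with slide as a block, and within slides 1, 2 and 3 they were -0.09, 0.14 and 0.22 for MHC and 0.14, 0.32 and 0.27 for interferon-stimulated genes. The count stayed at 2 with slide as a block and with any 1 array left out, and with replicate number as a block it was 0, Oas2 at adjusted p = 0.0918 and Usp18 at 0.0584 (9 members at an unadjusted p under 0.05 in limma). Another call was lost: with probes averaged that of Oas2.

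Whether dormancy went with a different change in melanoma (B16-D against B16-M) than in leukemia was tested as the difference between both changes. Here 0 of 46 members were higher and 6 lower, where 2.27% of all genes tested passed (1.34% higher and 0.934% lower), and 14 members stood at an unadjusted p under 0.05 in limma. Usp18 differed by -2.79 (SE 0.35, adjusted p = 5.5e-05), -2.80 blocked by slide (adjusted p = 0.000121) and -2.51 and -2.95 within slides, its log2 fold change being -1.13 in melanoma and 1.66 in leukemia. Oas1a differed by -2.46 (SE 0.35, adjusted p = 0.000265), -2.51 blocked by slide (adjusted p = 0.000194) and -2.27 and -2.49 within slides, and Oas2 was lower in the same test (adjusted p = 2.63e-07), with no measured fold because B16-D was not well above background. Irf9, Xaf1 and Parp14 also passed, at -1.11 (adjusted p = 0.0238), -2.17 (adjusted p = 0.0485) and -1.22 (adjusted p = 0.0302). The call of Irf9 was lost without any 1 of B16-M replicate 2, B16-D replicates 0 and 3, M0-p20 replicate 2 and J365-p20 replicate 3 (adjusted p from 0.0526 to 0.085), that of Xaf1 without any 1 array but B16-D replicate 0 and M0-p20 replicate 1 (adjusted p from 0.0555 to 0.152), and that of Parp14 lost without any 1 of B16-M replicates 0, 1 and 2, B16-D replicate 3, M0-p20 replicates 2 and 3 and J365-p20 replicate 0 (adjusted p from 0.057 to 0.0962). Medians were 0.01 over MHC and -0.61 over interferon-stimulated genes, against -0.01 over all genes, -0.08 and -0.45 with slide as a block, and within slides 1 and 3 they were 0.29 and -0.44 for MHC and -0.46 and -0.69 for interferon-stimulated genes. The MHC median turned to -0.05 with normexp. The count was 8 with B16-D replicate 2, 9 with slide as a block, and 3 without B16-M replicate 2, B16-D replicate 3 or M0-p20 replicate 2. Other settings ended calls as well: with each of normexp, quantile normalization, no filter and probes averaged those of Parp14 and Xaf1, with replicate number as a block that of Xaf1. In turn, with the title mark as a block, which ended the named calls of Parp14 and Xaf1, the count was 7 (1 higher and 6 lower) and the medians 0.26 and -0.61, and within unmarked arrays they were 0.55 and -0.48.

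Parental leukemia against parental melanoma compares 2 cell types, and 56.2% of all genes tested passed (31% higher and 25.2% lower in M0-p20), beside 26 of 46 members that were higher and 13 that were lower. Among 14 MHC genes 13 were higher and 0 lower, with Erap1 the exception at -0.05 (adjusted p = 0.837), and of 32 interferon-stimulated genes 13 were higher and 13 lower. Of the genes counted, Psmb8, Oas3 and Cd74 passed the filter only through the leukemia lines. Ifit1, Ifit3, Rsad2, Gbp2, Gbp3, Ifih1 and Rtp4 passed it only through the melanoma lines. The p-values of these genes follow a selection by the tumour type where they are high. Medians were 3.66 (2.99 at the bounds) and -0.11 (-0.17 at the bounds), against 0.19 over all genes, 3.66 and -0.10 with slide as a block, and within slides 1, 2 and 3 they were 3.89, 3.81 and 3.29 for MHC and 0.01, -0.23 and 0.13 for interferon-stimulated genes. H2-K1 was higher by 4.44 (SE 0.24, adjusted p = 5.36e-12), 4.49 blocked by slide (adjusted p = 1.15e-11), but its second probe differed by 0.64. Genes not well above background in M0-p20 were higher in B16-M by at least 14.3-fold (adjusted p = 8.82e-11) for Gbp2, at least 12.2-fold (adjusted p = 1.51e-15) for Rsad2 and at least 9.61-fold (adjusted p = 7.36e-13) for Rtp4. Among genes measured in both, Cxcl10 was lower in M0-p20 by -3.79 (adjusted p = 2.45e-09), while Oasl1 (1 of 3 B16-M arrays) was higher by 4.71 (adjusted p = 3.76e-07). The count was 38 with B16-D replicate 2 in the fit, where Dhx58 (adjusted p = 0.0911) no longer passed, 41 with slide as a block and 37 to 40 with any 1 array left out.

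**Figure D3:**
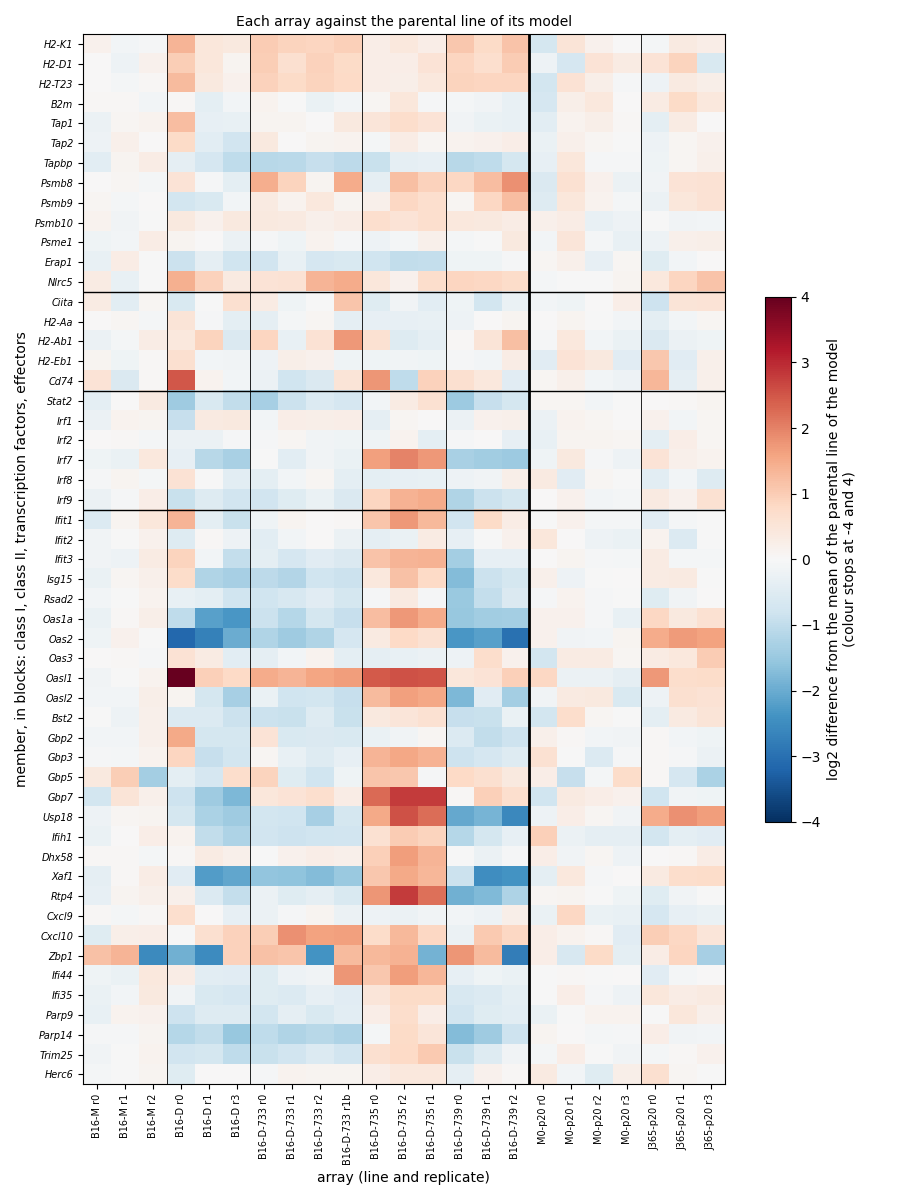
Difference of each matched member (row, grouped by role) on each of the 23 arrays (column, grouped by line) from the mean of its parental line, on a log2 colour scale limited to plus or minus 4. The B16-D-735 columns are mostly red over the interferon-induced effectors and those of B16-D-739 mostly blue, and rows of members below background show no measured difference.

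The pathway around these genes was described with 91 further genes listed by role, of which 87 matched a probe and 71 were tested in melanoma. Against B16-M, 2 rose and 10 fell in B16-D (median -0.17, where 2.0% and 1.6% of all genes did), 2 and 15 in B16-D-733 (-0.24, 3.18% and 2.39%), 9 and 1 in B16-D-735 (0.06, 3.07% and 1.96%), and 2 and 7 in B16-D-739 (-0.14, 2.15% and 1.55%). With slide as a block these were 2 and 14, 3 and 20, 14 and 1 and 5 and 14, with the title mark as a block 3 and 6, 3 and 3, 13 and 2 and 5 and 11, with no filter 2 and 6 in B16-D and 1 and 9 in B16-D-733, and with replicate number as a block 5 and 12 in B16-D-739. In B16-D, 1 to 3 rose and 3 to 6 fell without any 1 array but B16-D replicate 0, and 2 and 12 without that one. With any 1 array left out the ranges were 1 to 2 and 7 to 10 in B16-D-733, 6 to 8 and 0 to 1 in B16-D-735, and 1 to 2 and 4 to 7 in B16-D-739 (lowest without B16-M replicate 2 or the line's replicate 1).

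Against B16-D, the further genes that rose and fell numbered 0 and 0 in B16-D-733 (0.411% and 0.0699% of all genes, 5 at an unadjusted p under 0.05 in limma), 22 and 3 in B16-D-735 (4.07% and 3.93%), and 1 and 0 in B16-D-739 (0.23% and 0.0782%), where the 1 was H2-M3 and was lost without B16-D replicate 0 or 3 or any 1 B16-D-739 array (adjusted p from 0.054 to 0.189), with slide (0.0815), replicate number (0.0554) or title mark (0.0513) as a block, with B16-D replicate 2 (0.134), with normexp (0.659) and with no filter (0.0544). B16-D-735 gave 20 and 4 against B16-D-733 (4.27% and 4.29% of all genes) and 17 and 2 against B16-D-739 (3.58% and 3.27%). Against B16-D-733 these were 16 and 2 without B16-D-735 replicate 2 and 15 and 2 with the title mark as a block. Against B16-D-739 they were 20 and 5 with slide as a block. There 1 fell with no filter, with probes averaged, or without B16-D-735 replicate 0 or 2 or B16-D-739 replicate 1 or 2. In J365-p20 against M0-p20, 1 rose and 0 fell among 71 tested (0.488% and 0.579% of all genes), the 1 being Slfn2, an interferon-induced Schlafen gene, with 2.02 (adjusted p = 0.00225), lost with replicate number as a block (adjusted p = 0.0567, and 7 at an unadjusted p under 0.05 in limma), and 2 rose with no filter. Between M0-p20 and B16-M 36 of 78 were higher and 21 lower (31% and 25.2% of all genes), and for the difference of both dormancy changes 1 and 6 (1.34% and 0.934%), or 1 and 11 with slide as a block, 1 and 10 without B16-D replicate 0 and 2 and 4 with the title mark as a block.

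Of these further genes, the following were chosen after their values were seen. Irgm2, an interferon-inducible GTPase, had log2 fold changes against B16-M of -1.73 (adjusted p = 0.00131) in B16-D, -1.15 (adjusted p = 0.00856) in B16-D-733, 1.91 (adjusted p = 0.000317) in B16-D-735 and -1.93 (adjusted p = 0.000341) in B16-D-739, of which the first 2 were lost with B16-D replicate 2 in the fit (adjusted p = 0.076 and 0.119) and the second also with the title mark as a block (0.091). Ddx58, the sensor RIG-I, fell in B16-D with -1.09 (adjusted p = 0.0195), in B16-D-733 with -1.15 (adjusted p = 0.0062) and in B16-D-739 with -1.41 (adjusted p = 0.00297), and rose in B16-D-735 with 1.67 (adjusted p = 0.000625). Its call in B16-D was lost without B16-M replicate 1 or 2 or B16-D replicate 1 or 3 (adjusted p from 0.068 to 0.0877) and with replicate number (0.0705) or title mark as a block (0.0996), which also ended that in B16-D-733 (0.0945). H2-DMb1, a chain of the class II peptide editor, went another way: it rose in B16-D by 2.47 (adjusted p = 0.0026), in B16-D-733 by 2.83 (adjusted p = 0.000259) and in B16-D-739 by 2.86 (adjusted p = 0.000537). In B16-D-735 its mean was -4.41 against -3.38 in B16-M. B16-D-735 differed from the other dormant lines by -3.49, -3.85 and -3.89 (adjusted p = 7.54e-05, 1.76e-05 and 2.97e-05).

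The promoters of the members were searched for GAAA, then any 2 bases, then GAAA again (TTTC, any 2 bases, TTTC on the opposite strand, overlapping matches counted), letters common in sites of interferon regulatory factors. Promoters were taken from RefSeq, build GRCm38.p6, as 250 bases before to 50 bases after the start of transcription. Of 42 members with an entry, 19 held the letters (45.2%), 4 of 14 MHC genes (28.6%) and 15 of 28 interferon-stimulated genes (53.6%), against 3.99% of 27025 genes and 3.44% of 32851 promoters in all. Members with no entry were Cd74, Ciita, Dhx58, H2-Ab1, Mx1, Mx2, Nlrc5, Oas2, Parp14, Parp9, Rtp4, Tap2, Usp18 and Zbp1. The members were listed as interferon-response and MHC genes, so these shares describe the list and not B16-D-735. Of the interferon-stimulated genes that rose in B16-D-735 against B16-M and had an entry, Oas1a, Gbp3 and Gbp7 held the letters. Irf7, Irf9, Oasl1, Oasl2, Ifi35 and Trim25 did not. A match describes the letters and is not evidence of a bound site. The promoters printed are of 2 interferon-stimulated genes whose levels are given above and of B2m, an MHC gene whose level stayed close to B16-M, and matches are in capitals. They lie at chr4:156200769-156201068 on the minus strand (3 matches), chr5:120907476-120907775 on the minus strand (2) and chr2:122147437-122147736 on the plus strand (1).
Isg15: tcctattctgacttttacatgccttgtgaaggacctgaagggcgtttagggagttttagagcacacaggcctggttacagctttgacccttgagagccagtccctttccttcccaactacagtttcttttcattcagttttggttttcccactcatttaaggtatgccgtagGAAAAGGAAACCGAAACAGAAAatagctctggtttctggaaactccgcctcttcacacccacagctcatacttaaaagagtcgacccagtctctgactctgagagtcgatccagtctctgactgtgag
Oas1a: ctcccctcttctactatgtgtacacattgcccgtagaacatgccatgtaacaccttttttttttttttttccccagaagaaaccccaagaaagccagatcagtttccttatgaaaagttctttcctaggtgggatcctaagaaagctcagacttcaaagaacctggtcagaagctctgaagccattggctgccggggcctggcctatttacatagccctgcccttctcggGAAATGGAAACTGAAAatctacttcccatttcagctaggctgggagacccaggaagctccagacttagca
B2m: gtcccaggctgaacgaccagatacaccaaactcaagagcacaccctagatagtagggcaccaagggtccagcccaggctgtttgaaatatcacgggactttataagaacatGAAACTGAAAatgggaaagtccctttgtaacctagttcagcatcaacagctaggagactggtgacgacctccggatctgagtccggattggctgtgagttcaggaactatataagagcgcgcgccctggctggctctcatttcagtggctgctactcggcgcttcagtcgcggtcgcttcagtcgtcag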

How the data were processed

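Total RNA of 24 cultured samples was hybridised to 1-colour mouse arrays (62976 spots each, 3671 of them controls) on 3 slides. Per the file headers, Agilent Feature Extraction 10.7.3.1 made the deposited processed signal, an intensity after background subtraction and spatial detrending with no scaling between arrays. The deposited series table holds the same values and was not used further, and no fold change from the authors was used. Spots the files mark as outliers (2468 over all arrays) were left out, and 0 were saturated. Log2 signal minus the 75th percentile of an array's 59305 gene spots was averaged over spots of a probe. RefSeq accessions gave 32994 of 56605 probes a symbol (22911 symbols), and the brightest probe stood for a gene. Genes well above background on at least 3 arrays of a fit were tested with limma 3.58.1 (linear models, moderated t, Benjamini-Hochberg) in R 4.3.3, with Python 3.11.15, pandas 2.3.3, numpy 2.4.6, scipy 1.17.1 and matplotlib 3.10.9 for the rest, and the steps were tested on simulated data. Replicate numbers of B16-M pair with those of B16-D-733 (correlations of deviations 0.58, 0.35 and 0.82) and B16-D-739 (0.74, 0.58 and 0.83). In B16-M and B16-D-739 number and slide coincide, so there a pairing by number cannot be told apart from slide. Alternatives were normexp correction of median spot and local background signals (offset 50), quantile normalization, other filters, the mean of probes, slide, replicate number or (chosen after seeing the data) a day shared by some array titles as a block, B16-D replicate 2 included and 1 array left out. Named per comparison were up to 12 called members of largest absolute log2 fold change, defining members, and those below background everywhere. Members and lists were chosen with earlier results of these data known.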

Additional observations from a re-analysis of the deposited data

Results flagged for a closer look

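In groups of 4 arrays, 1 array lay far from the other 3 for 8 of 77 member and group pairs, where chance gives about 1 in 20. In B16-D-733 these were Irf1 on replicate 0 (1.31, others 1.65 to 1.66), Bst2 on replicate 2 (3.14, others 2.77 to 2.80), Gbp2 on replicate 0 (-0.27, others -1.45 to -1.39), Usp18 on replicate 2 (-3.65, others -3.12 to -3.03) and Zbp1 on replicate 2 (-3.45, others 0.04 to 0.19). Replicate 2 is the line's only array on slide 1, where Zbp1 read -3.83 to -2.96 on all 6 melanoma arrays, the split by slide given above. In M0-p20 replicate 0 stood apart for Irf2 (0.07, others 0.44 to 0.46), Oasl1 (0.71, others -0.48 to -0.36) and Gbp7 (-3.46, others -2.47 to -2.30).

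The change from B16-M to B16-D differed from that from M0-p20 to J365-p20 (no other dormant line was in this test) for Irf9 (-1.11, adjusted p = 0.0238), Oas1a (-2.46, adjusted p = 0.000265), Usp18 (-2.79, adjusted p = 5.5e-05), Xaf1 (-2.17, adjusted p = 0.0485) and Parp14 (-1.22, adjusted p = 0.0302), of which Irf9, Xaf1 and Parp14 were lost without some single arrays. Oas2 also passed (adjusted p = 2.63e-07), but its fitted -4.20 is not a measured difference, as no used B16-D array had its probe well above background. On B16-D replicate 2, which was left out, 10 members were above background that were so on no other B16-D array. That array had 90.3% of all its spots well above background, against 46.0% to 55.8% on the other arrays. The added detection was thus not particular to these members.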

How the results depend on the processing

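No log2 fold change of a named gene that was called turned its sign under any setting. Gbp2, not called in B16-D-735 against B16-D-733, turned to -1.04 and passed with the title mark as a block (chosen after seeing the data). Counts of members called moved by more than 1.5 times as follows, and the cause was not tested. In B16-D against B16-M (6 called) they were 3 with no filter on dim probes and 11 each with slide, replicate number or title mark as a block. B16-D-733 against B16-M (10 called) gave 6 with no filter and 6 with the title mark as a block. B16-D-733 against B16-D (2 called) gave 0 with B16-D replicate 2 included and 0 with normexp, where limma had 5 and 4 at an unadjusted p under 0.05, and 1 each with the filter on every array, the mean of probes, slide as a block and the replicate block. B16-D-739 against B16-D (1 called) gave 0 with replicate 2, normexp, no filter and the filter on every array (9, 3, 7 and 5 at an unadjusted p under 0.05 in limma), and 2 with the mean of probes. J365-p20 against M0-p20 (2 called) gave 1 with the mean of probes and 0 with the replicate block (9 at an unadjusted p under 0.05 in limma).

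With 1 array left out, counts ranged from 2 to 12 in B16-D, 3 to 8 in B16-D-733, 9 to 11 in B16-D-735 and 5 to 10 in B16-D-739 against B16-M. Against B16-D they ranged from 0 to 4 in B16-D-733 and 0 to 2 in B16-D-739, and for the difference between both dormancy changes from 3 to 9. Over named genes and comparisons the values that kept direction and side of the threshold were 248 with normexp (12 lost, 3 gained), 261 with quantile normalization (8 lost, 2 gained), 256 with no filter (19 lost, 0 gained), 268 with the filter on every array (0 lost, 3 gained), 248 with the mean of probes (15 lost, 4 gained), 255 with slide as a block (2 lost, 11 gained), 244 with the replicate block (9 lost, 14 gained), 223 with replicate 2 (17 lost, 5 gained) and, fewest of these, 201 with the title mark as a block (18 lost, 17 gained).

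Where replicate numbers pair the samples, the block gave 15 calls in B16-D-733 and 16 in B16-D-739 against B16-M, and it ended no call there but that of Xaf1 in B16-D-733. Elsewhere samples share only a number, with correlations of 0.28 and 0.04 in B16-D, 0.80, -0.31 and -0.34 in B16-D-735 against B16-M, and 0.51, -0.04 and 0.16 in J365-p20 against M0-p20. The limits are 3 or 4 arrays per line, 1 line per condition, replicates of unknown origin, and probes near background, where a fold is a bound.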
